A study of Mus musculus with 2 samples.

Results

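The Notch receptors Notch1, Notch2, Notch3 and Notch4 and the ligands Jag1, Jag2, Dll1 and Dll4 were followed within single cells of the newborn mouse kidney. They are 8 of the 32285 genes listed in the deposited count matrices and were chosen by symbol as the receptors and ligands of the pathway. The rule names no measured value, but the set was proposed with earlier results of these data known. All 8 passed the filter on low counts. Single-cell RNA sequencing of kidney at P0 (postnatal day 0) gave 2 libraries, both with the genotype Rbpj c/+ ; Foxd1cre/+. This is read as 1 conditional copy of Rbpj, the DNA-binding partner of the Notch receptors, with a Cre recombinase expressed from Foxd1, a gene of the stromal progenitors of the kidney. Both libraries form 1 group (n = 2), no other genotype was analysed here, and every value describes kidney of this genotype. The labels do not say whether each library came from 1 animal or a pool, nor that they came from separate animals, so the spread between them may be technical.

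Notch signalling passes between touching cells. A Jagged or Delta-like ligand on one cell pulls on a Notch receptor on its neighbour, the receptor is cleaved, and its intracellular domain joins RBPJ in the nucleus and activates targets such as the Hes and Hey genes. A ligand in the same cell as a receptor can also bind it there and block it, which is called cis-inhibition, so the pattern of receptor and ligand within single cells is of interest beyond that of each gene. In the kidney the pathway is known for patterning the early nephron, for the choice between intercalated and principal cells in the collecting duct, and for the growth of vessels and their mural cells.

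The libraries held 200331687 and 173166168 unique molecular identifiers (UMIs, counts of single captured transcripts). Barcodes that reached 3000 UMIs and 500 genes, with no more than 20% of UMIs from mitochondrial genes, numbered 5529 and 4206, and 5284 and 4064 remained after removal of likely doublets. The libraries shared 6 cell barcodes. Each cell was assigned by lists of marker genes, without any Notch gene, to 1 of 17 gates, and 8347 of 9348 cells were gated. Of the ungated cells, 703 had a low score and 298 carried markers of another lineage. A gate is a range of a score and not a proven cell type: 320 stroma cells lay within 0.05 of the lowest accepted score, with 155 cells just outside it, and 204 early nephron cells lay inside with 134 outside. Gates were checked against clusters made without Notch genes. Each cluster took the name of the commonest gate among its cells, so some agreement is built in. All cells of the endothelial and immune gates lay in clusters of the same name. Clusters named stroma held 52.7% of the pericyte or mesangial gate. Clusters named ungated held 28.2% of distal convoluted or connecting tubule cells and 22.6% of ureteric or collecting duct cells. Of intercalated cells, 76.5% lay in clusters of that name and 16.5% in those named ureteric or collecting duct. In the smooth muscle or renin gate, 49 cells of replicate 1 and 3 of replicate 2 lay in a smooth muscle cluster of their own. The median stroma score was 0.129 in the pericyte or mesangial gate, whose own median score was 0.366.

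Counts were summed per gate and library, and levels are given as counts per 1000000 UMIs (CPM) for replicates 1 and 2 in that order. The counts are of transcript 3′ ends and were not divided by gene length. Of the gates, 14 had at least 20 cells in each library and were compared, each against the unweighted mean of the other gates on the log2 scale, with edgeR's quasi-likelihood test and an adjusted p under 0.05. Among 112 tests of the members, 33 were called higher and 27 lower. Of all tests over 17485 genes, 24.8% were called higher and 15.6% lower, so the members' counts, 17 higher and 17 lower for receptors and 16 higher and 10 lower for ligands, stand beside a high background of differences between cell types. Adjusted p-values below are from this fit, and log2 fold changes carry their standard error (SE).

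**Figure D1:**
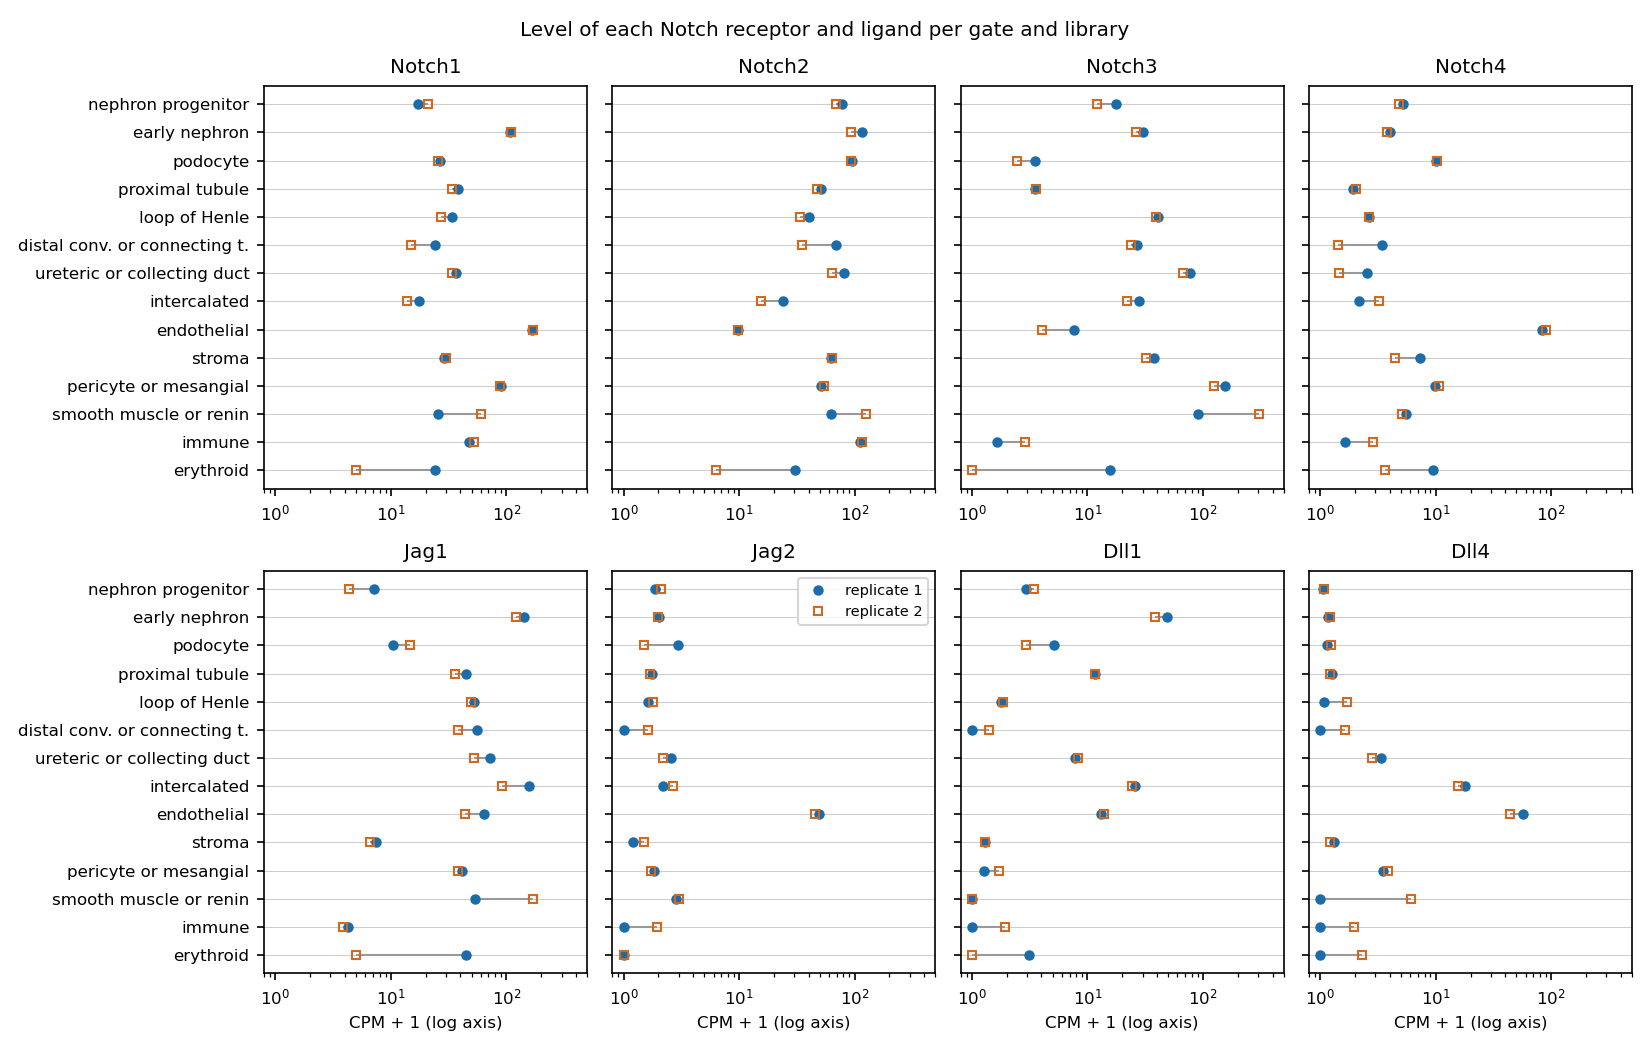
Level of each member in 14 gates, in CPM + 1 on a log axis. The filled circle is replicate 1, the open square replicate 2, and the line joins them. Notch4, Jag2 and Dll4 stand highest in the endothelial gate, Notch2 is low there, and in the smooth muscle or renin gate the libraries lie apart for Notch3 (89.0 and 302.7 CPM).

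Notch1 (ENSMUSG00000026923, GRCm38 chr2:26457903-26516663, minus strand), a broadly used receptor, was highest in the endothelial gate at 164.0 and 167.4 CPM. The libraries differed far less than the gates there, with a log2 fold change of 2.33 ± 0.12 (SE) and an adjusted p of 1.64e-13. Early nephron cells followed at 105.8 and 107.8 CPM (1.52 ± 0.12) and pericyte or mesangial cells at 88.9 and 86.5 CPM (1.27 ± 0.14), and the library values of these 3 gates did not overlap. Below them the immune gate stood at 46.8 and 51.1 CPM, inside the range of the smooth muscle or renin gate (24.5 and 58.9 CPM). Notch1 was called lower in 6 gates, among them intercalated cells (16.4 and 12.8 CPM, -1.47 ± 0.23, adjusted p = 3.19e-05) and nephron progenitors (16.3 and 20.05 CPM, -1.14 ± 0.16). The lower call in stroma (27.8 and 28.9 CPM, -0.42 ± 0.15) became 0.22 ± 0.16 with an adjusted p of 0.314 when cells took the gate of their cluster. The immune and loop of Henle calls had adjusted p-values of 0.0452 and 0.0459 and were lost under other settings.

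Notch2 (ENSMUSG00000027878, chr3:98013527-98150361, plus strand), a receptor needed for the proximal nephron, was the most widespread member. At least 1 UMI was found in a mean of 53.8% ± 0.823 (SD, n = 2) of gated cells. Its levels were highest in the immune gate (110.5 and 114.5 CPM), early nephron (114.4 and 92.8 CPM) and podocytes (94.6 and 91.7 CPM), whose library ranges overlapped from one to the next and with that of the smooth muscle or renin gate (60.8 and 123.9 CPM). Nephron progenitors reached 77.4 and 67.6 CPM, a log2 fold change of 0.54 ± 0.15 with an adjusted p of 0.00392. The endothelial gate held 8.70 and 8.72 CPM, the lowest mean of the 14 gates, at -2.72 ± 0.20 and an adjusted p of 2.47e-10. Intercalated cells were also lower, at 22.9 and 14.5 CPM (-1.58 ± 0.24). Notch2 was thus low in the gate where Notch1 and Notch4 were highest. In near-empty barcodes of 10 to 100 UMIs, which carry free RNA, Notch2 made up 95.9 and 84.9 CPM and Notch1 45.5 and 19.9 CPM, within the range of the gates.

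Notch3 (ENSMUSG00000038146, chr17:32120820-32166852, minus strand), the receptor of vascular mural cells, was highest in the smooth muscle or renin gate at 89.0 and 302.7 CPM and in the pericyte or mesangial gate at 155.2 and 122.5 CPM. Both were called higher (3.79 ± 0.26 and 3.17 ± 0.22), and their library ranges overlapped. Ureteric or collecting duct cells came next at 75.6 and 65.9 CPM (2.02 ± 0.24, adjusted p = 5.20e-07), then loop of Henle at 40.1 and 38.3 CPM and stroma at 36.9 and 31.4 CPM. Podocytes (2.53 and 1.46 CPM), proximal tubule (2.54 and 2.57 CPM), endothelial cells (6.72 and 3.05 CPM) and immune cells (0.650 and 1.89 CPM) were lower. The libraries lay wide apart in the smooth muscle or renin gate, with log2 fold changes of 2.51 and 4.89. This gap went with the makeup of the gate, whose part in it was not tested. The 49 cells of replicate 1 in the smooth muscle cluster held Notch3 at 18.9 CPM, whereas the cells of the gate in the pericyte cluster, 32 and 40 in number, held it at 218.6 and 401.7 CPM. Within the pericyte or mesangial gate, Notch3 stood at 249.0 and 244.5 CPM in cells of the pericyte cluster and at 56.3 and 41.9 CPM in cells of the stroma clusters. Notch1 did not show this split there, with 86.0 and 93.0 CPM against 92.2 and 83.0 CPM.

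Notch4 (ENSMUSG00000015468, chr17:34564268-34588503, plus strand), a receptor of the endothelium, reached 82.0 and 88.2 CPM in the endothelial gate. No other gate exceeded 9.71 CPM in either library. The log2 fold change was 4.91 ± 0.14 with an adjusted p of 6.14e-18. Calls of 1.40 ± 0.25 in the pericyte or mesangial gate (8.84 and 9.71 CPM) and 1.39 ± 0.23 in podocytes (9.08 and 9.24 CPM) concern levels close to those of near-empty barcodes, in which Notch4 made up 6.61 and 10.8 CPM. The part of such free RNA in those calls was not tested.

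ETS transcription factors are known to act on many genes of the endothelium. The promoter window of Notch4 is shown because it held the most matches to AGGAAG, 1 form of ETS site. That of Dll4 is set beside it as a gene that also stood highest in the endothelial gate and held no match to that form, as did Notch1 and Jag2. Shown are the 250 bases before the RefSeq start (GRCm38.p6, plus strand, read 5′ to 3′, chr17:34564045-34564294 for Notch4 and chr2:119325534-119325783 for Dll4), in lower case with each match to AGGAAG or its reverse complement CTTCCT in capitals.
Notch4: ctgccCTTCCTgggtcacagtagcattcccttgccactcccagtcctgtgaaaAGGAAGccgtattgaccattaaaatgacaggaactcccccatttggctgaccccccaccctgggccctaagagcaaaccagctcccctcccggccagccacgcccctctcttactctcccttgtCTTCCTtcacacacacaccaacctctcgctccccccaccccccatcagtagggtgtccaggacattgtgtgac
Dll4: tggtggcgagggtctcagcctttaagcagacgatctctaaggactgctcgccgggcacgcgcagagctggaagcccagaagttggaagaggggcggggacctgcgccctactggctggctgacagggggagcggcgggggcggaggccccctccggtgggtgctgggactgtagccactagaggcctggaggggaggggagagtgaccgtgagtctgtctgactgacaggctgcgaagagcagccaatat
Of the 9 RefSeq windows of 300 bases found for the 8 members, from 250 before to 50 after the start, Notch4 held 4 matches, 3 of them in the stretch shown. The Dll4 window held 0, 1 of the 2 Dll1 windows held 1, and the other windows held 0. The same letters occur in 35.4% of 32851 promoter windows. TGGGAA, the core of RBPJ sites, or its reverse complement TTCCCA was found in 0 of the 9 windows and in 25.6% of all windows. A match is only a run of letters, and no binding was measured. Shorter runs such as GGAA were not counted, and GGAA occurs in the Dll4 stretch too.

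Jag1 (ENSMUSG00000027276, chr2:137081456-137116644, minus strand), the Jagged ligand of the early nephron, was the most widespread ligand, detected in 31.2% ± 1.01 (SD, n = 2) of gated cells. It was highest in early nephron cells at 140.4 and 120.1 CPM (2.10 ± 0.19, adjusted p = 1.38e-08) and in intercalated cells at 155.5 and 90.2 CPM (2.09 ± 0.24, adjusted p = 3.33e-07). The smooth muscle or renin gate held 52.7 and 169.6 CPM, and the ranges of these 3 gates overlapped. Ureteric or collecting duct, endothelial, loop of Henle and distal convoluted or connecting tubule cells were called higher at library values between 37.3 and 71.7 CPM. Nephron progenitors were lower at 6.11 and 3.31 CPM (-2.94 ± 0.32), as were podocytes (9.37 and 13.6 CPM), stroma (6.43 and 5.61 CPM) and immune cells (3.25 and 2.84 CPM). Near-empty barcodes held Jag1 at 39.7 and 56.0 CPM, and the early nephron and intercalated levels were above that in both libraries.

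Jag2 (ENSMUSG00000002799, chr12:112907819-112929776, minus strand), the other Jagged ligand, reached 48.0 and 44.0 CPM in the endothelial gate and at most 2.03 CPM in either library of the other 13 gates. Its call was 6.21 ± 0.17, or 5.87 ± 0.16 without the erythroid and smooth muscle or renin gates. That second fit, added after seeing the data, is given because Jag2 had no count in the erythroid gate, which makes the mean of the other gates unstable. In the second fit Jag2 was also lower in stroma (-1.70 ± 0.48). The fit of all gates gave a standard error of 1.21e+06 there, so its count of lower calls in stroma leaves Jag2 out. The 25 urothelium cells, too few for the fit, held Jag2 UMIs in 53.3% and 80.0% of cells.

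Dll1 (ENSMUSG00000014773, chr17:15367354-15376872, minus strand), a Delta-like ligand, was highest in early nephron cells at 47.9 and 37.7 CPM, followed by intercalated cells at 24.6 and 23.4 CPM, endothelial cells at 12.1 and 12.9 CPM and proximal tubule at 10.7 and 10.7 CPM. These 4 gates did not overlap in their library values. Near-empty barcodes held 8.27 and 28.9 CPM of Dll1, from 10 and 16 counts, and only the early nephron level was above both values. The smooth muscle or renin gate held 0 Dll1 counts in both libraries, at least 5.65-fold below the mean of the other gates when 3 counts over the gate are taken as the floor. The lower call there was lost in 3 other settings. In the fit without that gate and the erythroid gate the log2 fold changes were 4.22 ± 0.14 in early nephron, 3.43 ± 0.25 in intercalated, 2.46 ± 0.18 in endothelial, 2.39 ± 0.18 in proximal tubule and 1.46 ± 0.23 in ureteric or collecting duct cells. The same 5 gates were called higher in the fit of all gates, at 4.81, 4.02, 3.04, 2.91 and 1.97. The ureteric or collecting duct value fell to 0.68 with an adjusted p of 0.478 when barcodes over 60000 UMIs were left out. Without the gates at 0 counts, Dll1 was also lower in loop of Henle (-1.72 ± 0.39), distal (-3.21 ± 0.68), stroma (-3.43 ± 0.52), pericyte or mesangial (-2.61 ± 0.56) and immune cells (-2.96 ± 0.92). The fit of all gates gave Dll1 standard errors of 1219.59 or more in these gates. The counts of lower calls from that fit therefore leave Dll1 out there.

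Dll4 (ENSMUSG00000027314, chr2:119325784-119335962, plus strand), the Delta-like ligand of sprouting vessels, stood at 56.3 and 42.8 CPM in the endothelial gate (6.18 ± 0.20, adjusted p = 1.07e-16). Intercalated cells were the next gate at 17.0 and 14.5 CPM (4.37 ± 0.40, adjusted p = 1.37e-08), with no overlap of library values on either side. No other gate exceeded 5.08 CPM. Near-empty barcodes held 8.27 and 3.61 CPM, from only 10 and 2 counts. The level of intercalated cells was above both values, while pericyte or mesangial cells (2.49 and 2.84 CPM, called higher at 1.58 ± 0.50) were below both. With so few counts the level of free RNA is uncertain. Dll4 was called lower in early nephron, nephron progenitor, podocyte, proximal tubule and stroma cells, each with at most 0.306 CPM in either library, and those 5 calls were lost with a doubled doublet rate.

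**Figure D2:**
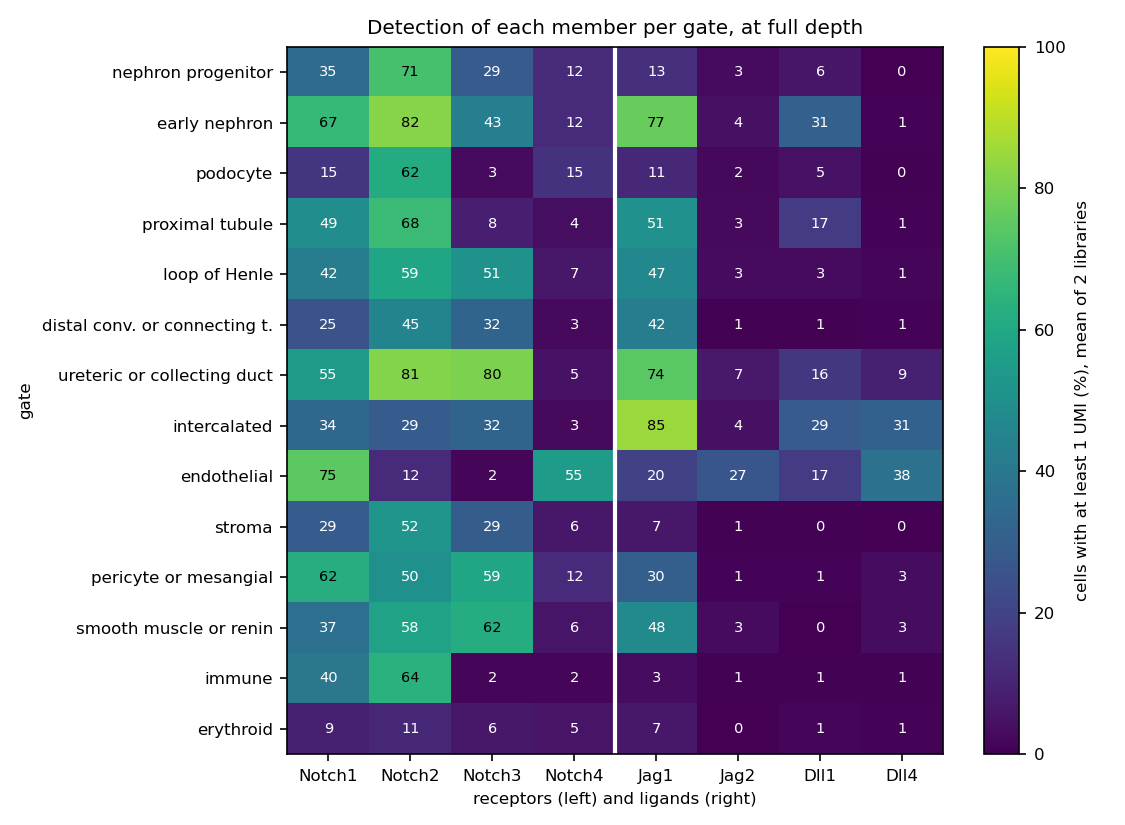
Share of cells with at least 1 UMI of each member (colour and number, in %), as the mean of 2 libraries, by gate (vertical) and member (horizontal, receptors left of the white line). Jag1 is detected in 76.6% and Notch2 in 81.8% of early nephron cells, and Dll4 in 37.7% of endothelial and 30.9% of intercalated cells.

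A cell was counted as carrying both sides of the pathway when it held at least 1 UMI of any receptor and at least 1 of any ligand. Over all gated cells this held for 35.8% in replicate 1 (95% exact Clopper-Pearson interval 34.4% to 37.2%) and 36.2% in replicate 2 (34.6% to 37.8%). Intervals here and below cover counting error only. Receptor without ligand was found in 42.9% and 45.1%, ligand without receptor in 4.03% and 4.21%, and neither in 17.3% and 14.5%. Background was read in the erythroid gate and, for the members of vessels, in proximal tubule. In the erythroid gate both sides were found in 5.0% and 1.61% of cells at median depths of 8194 and 11799 UMIs, and single members in at most 17.5%. Haemoglobin transcripts filled much of that depth, with Hbb-bs alone at 200075 and 370692 CPM. Fewer UMIs were left for other genes, so these shares can understate the background in other gates of like depth. Proximal tubule, at 31375 and 41877 UMIs, held Notch4 in 3.22% and 4.55%, Jag2 in 1.61% and 3.497% and Dll4 in 0.690% and 1.05% of cells, but Notch1, Notch2 and Jag1 each in 48.7% or more. Detection follows depth, so shares were also computed for cells thinned to 10000 UMIs each, which left out 1246 and 580 shallower gated cells. The mean share with both was then 22.6% ± 3.37 (SD, n = 2).

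**Figure D3:**
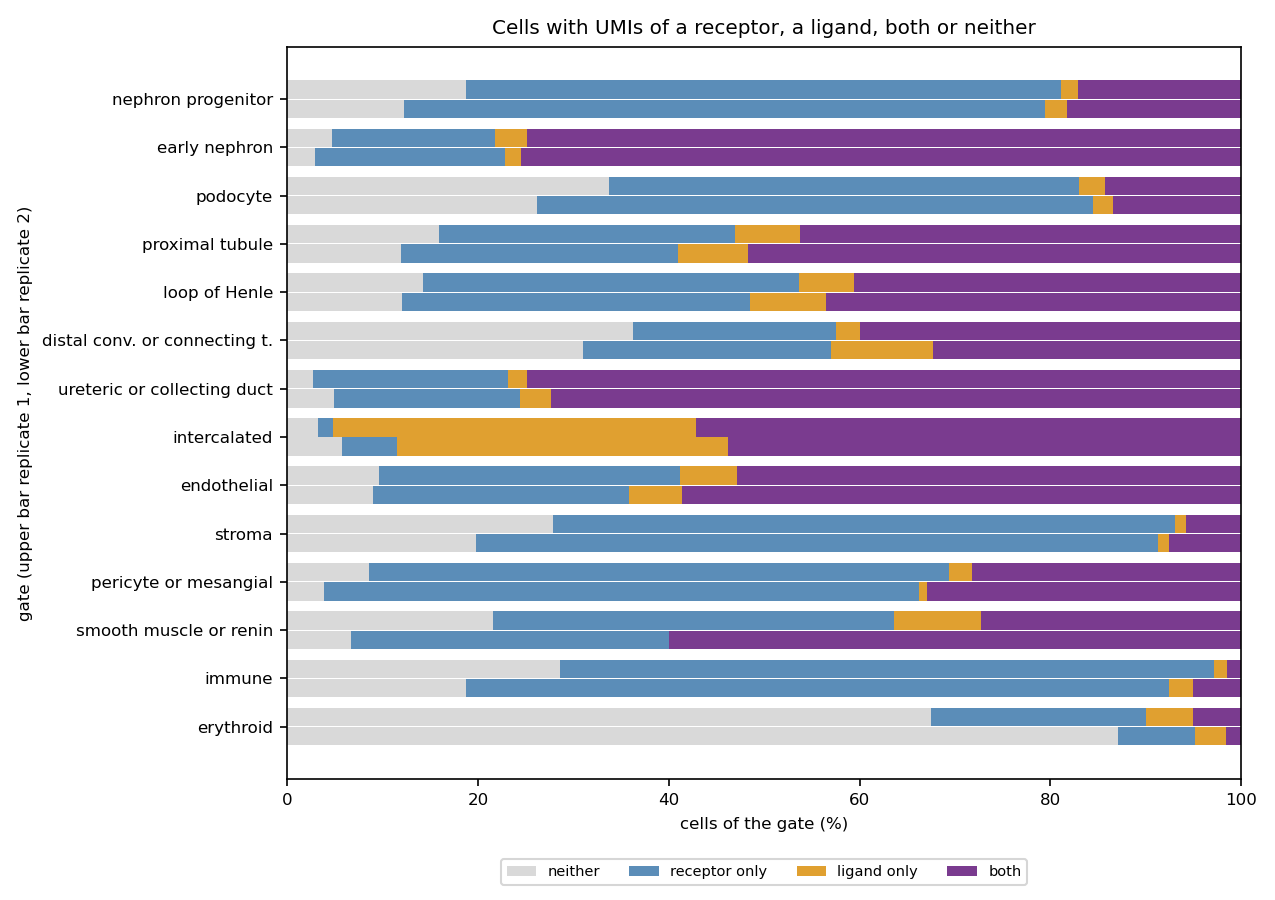
Cells with neither, a receptor only, a ligand only or both, in % of the cells of each gate. The upper bar of a pair is replicate 1 and the lower bar replicate 2. Ligand-only cells make up over 30% in the intercalated gate and at most 10.8% in every other gate shown.

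Early nephron cells often carried both. The shares were 74.9% (71.4% to 78.1%) of 688 cells and 75.6% (70.4% to 80.2%) of 315 cells at median depths of 22688 and 32879 UMIs, and 53.9% and 47.3% after thinning to 10000 UMIs. The ureteric or collecting duct gate had like shares at full depth, 74.8% and 72.4%, but 40.8% and 30.9% after thinning. Notch2 with Jag1 was the commonest pair, in 63.7% and 66.7% of cells, followed by Notch1 with Jag1 in 59.6% and 61.9%. Notch1 was found in 79.3% of cells with Jag1 and in 35.4% of depth-matched cells without it, as means of both libraries. In the deepest bin 96.4% and 96.8% of cells held a ligand, so the matched share rests on few cells there. The gate may also pool states, as 7.88% of its cells lay in nephron progenitor clusters. Of cells with Dll1, 94.0% held Notch1, beside 65.8% and 68.3% of all cells of the gate without matching for depth. Jag1 and Dll1 shared 31.1% and 28.2% of cells. The 4 members Notch1, Notch2, Jag1 and Dll1 were called higher and 1, Dll4, lower, while 32.6% of all genes were called higher and 15.8% lower in this gate. Of 37 other pathway genes 10 were higher and 5 lower. The targets Hes5 (39.0 and 27.6 CPM, 8.15 ± 0.28) and Hey1 (43.4 and 31.9 CPM, 3.49 ± 0.15) changed most.

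Nephron progenitors and podocytes were mostly receptor-only. Receptor without ligand was found in 62.3% and 67.3% of progenitors and in 49.3% and 58.3% of podocytes, and both in 17.1% and 18.3% of progenitors and 14.2% and 13.4% of podocytes. Podocytes were shallow, at medians of 9257 and 14145 UMIs. After thinning to 10000 UMIs, which left out 201 and 30 podocytes and 17 and 10 progenitors, both were found in 5.32% and 4.24% of progenitors and 8.10% and 5.77% of podocytes, so the order of the gates turned with depth. Notch2 with Jag1 was the commonest pair in each, in 12.4% and 11.5% of progenitors and 7.95% and 10.7% of podocytes. In progenitors 1 member, Notch2, was called higher and 3 lower, beside 32.5% and 18.4% of all genes. In podocytes 2 members, Notch2 and Notch4, were higher and 4 lower, beside 26% and 19.2%. Of 37 pathway genes, 12 were higher and 7 lower in progenitors, led by Dtx1, a ubiquitin ligase of the pathway, at 12.6 and 14.2 CPM (4.36 ± 0.42). In podocytes 15 were higher and 7 lower. The ligand-like genes Dlk2 and Dlk1 changed most, with log2 fold changes of 3.21 to 5.55 and -3.53 to -2.16 over other settings. Hey1, given beside them, stood at 23.2 and 18.0 CPM (2.66 ± 0.20). It was the 1 target of 6 called higher in podocytes, while 2 targets were called lower.

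Along the tubule, Jag1 was mainly detected together with Notch2. Both sides were found in 46.2% and 51.7% of proximal tubule cells, 40.6% and 43.6% of loop of Henle cells and 40.0% and 32.3% of distal convoluted or connecting tubule cells. Notch2 with Jag1 was present in 38.9% and 41.6%, 34.1% and 33.3%, and 33.8% and 24.1% of them. Notch2 lay between 32.5 and 67.5 CPM in these gates, below its 95.9 and 84.9 CPM in near-empty barcodes. Jag1 lay between 34.6 and 54.5 CPM, above its near-empty 39.7 CPM in replicate 1 and below its 56.0 CPM in replicate 2. The part of free RNA in these shares was not tested. Proximal tubule cells were the deepest. After thinning to 10000 UMIs both were found in 18.2% ± 3.32, 16.5% ± 1.89 and 17.4% ± 7.29 (SD, n = 2). At equal depth these 3 gates therefore differed by less than the spread between libraries. In proximal tubule 1 member, Dll1, was called higher and 3 lower, beside 30.8% and 19% of all genes. In loop of Henle 2, Notch3 and Jag1, were higher and 3 lower, beside 26.3% and 16.5%. In the distal gate 1, Jag1, was higher and 2 lower, beside 25.1% and 20.6%. The Jag1 call there, 0.69 ± 0.26 with an adjusted p of 0.0361, was lost in 4 other settings, that of Notch4 in 2, and those of Jag1, Notch2 and Notch4 in loop of Henle in 1 each. Lfng, which adds sugars to Notch receptors, was lower in loop of Henle (0.522 and 0.391 CPM, -3.54 ± 0.62) and the distal gate (0.964 and 0.629 CPM, -2.67 ± 0.64). Pathway genes counted 8 higher and 12 lower of 37 in proximal tubule, 9 and 10 in loop of Henle, and 9 and 9 in the distal gate.

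The gates of the collecting duct held 2 patterns. In the ureteric or collecting duct gate both sides were found in 74.8% (67.0% to 81.6%) of 147 cells and 72.4% (63.6% to 80.0%) of 123 cells, and ligand without receptor in 2.04% and 3.25%. Notch2 and Notch3 were present together in 72.1% and 69.1% of these cells, and each of them with Jag1 in 60.2% to 68.7%. In the intercalated gate both were found in 57.1% (44.05% to 69.5%) of 63 cells and 53.8% (39.5% to 67.8%) of 52 cells, and ligand without receptor in 38.1% and 34.6%. Ligands made up 74.6% and 71.9% of all member UMIs in intercalated cells and 29.97% and 27.7% in the ureteric or collecting duct gate. The 2 gates had like median depths, 21701 and 31782 UMIs in intercalated cells against 23116 and 29048 UMIs. Their deepest cells were unlike. The deepest of 5 bins had medians of 52054.5 and 52144.5 UMIs in intercalated cells against 131816 and 128512 UMIs. After thinning to 10000 UMIs both were found in 33.8% and 21.8% of intercalated cells. The duct gate then held 40.8% and 30.9%, and the library ranges overlapped.

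Intercalated cells regulate acid and base and form among principal cells of the duct. Jag1 was detected in 88.9% and 80.8% of them, Dll4 in 34.9% and 26.9% and Dll1 in 30.2% and 26.9%, and a mean of 48.9% held 2 or more ligands. Notch1 with Jag1 was the commonest pair, in 30.2% and 30.8%. Jag1 with Dll1 was found in 30.2% and 23.1% and Jag1 with Dll4 in 28.6% and 23.1%. The 3 ligands Jag1, Dll1 and Dll4 were called higher and the 2 receptors Notch1 and Notch2 lower, beside 20.7% and 15% of all genes. In the ureteric or collecting duct gate Notch3, Jag1 and Dll1, 3 members, were higher and 1, Notch4, lower, beside 21.7% and 13.7%. Neurl1a, a ubiquitin ligase that acts on Notch ligands, was higher in both gates, at 16.5 and 14.5 CPM (1.90 ± 0.24) in the duct and 15.8 and 7.23 CPM (1.57 ± 0.39) in intercalated cells. Lfng was lower in both (-2.06 ± 0.48 and -2.13 ± 0.71). The lower calls of Lfng in these gates and in the loop of Henle and distal gates were each lost in 2 other settings, with gates taken from clusters and with a stricter limit on other lineages, and in intercalated cells the value ranged from -4.57 to -0.88. Of 37 pathway genes, 8 were higher and 4 lower in the duct, and 4 higher and 6 lower in intercalated cells.

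**Figure D4:**
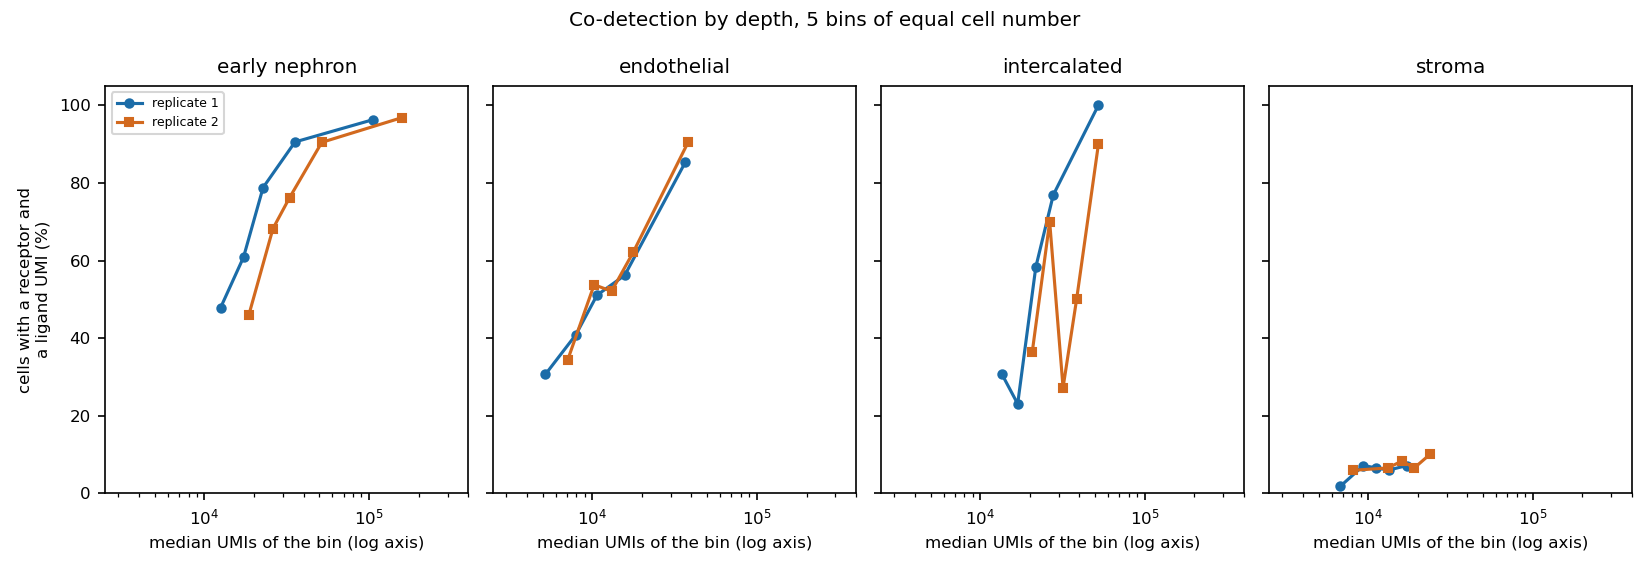
Share of cells with a receptor and a ligand UMI (%) against the median UMIs of the bin (log axis), in 5 depth bins of equal cell number per library, for 4 gates. Shares are highest in the deepest bin in early nephron and endothelial cells and stay at or under 10.2% in stroma, while intercalated bins hold 10 to 13 cells and scatter.

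In endothelial cells every member was called. Notch1, Notch4 and the 4 ligands, 6 of the 8, were higher and Notch2 and Notch3, 2 members, lower, beside 30.4% and 17.6% of all genes. Both sides were found in 52.8% (49.0% to 56.6%) of 685 cells and 58.6% (54.5% to 62.6%) of 594 cells at median depths of 10664 and 13065 UMIs. After thinning, which left out 316 and 169 endothelial but 36 and 12 early nephron cells, the shares were 48.5% and 45.6%, beside 53.9% and 47.3% in early nephron, and the library ranges of these gates overlapped. Notch1 with Dll4 was the commonest pair, in 31.7% of cells in each library, followed by Notch4 with Dll4 in 25.4% and 27.8%. Notch1 and Notch4 shared 43.1% and 50.2% of cells.

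Endothelial cells were divided by 6 arterial marker genes, Gja4, Gja5, Sox17, Bmx, Sema3g and Efnb2. The 401 and 347 cells called arterial held at least 1 UMI of at least 2 of them, whatever their depth. They outnumbered the 284 and 247 other cells, so the label need not mean cells of arteries. In the cells called arterial, Dll4 was detected in 47.9% and 49.3%, Jag2 in 41.4% and 38.6% and Jag1 in 29.4% and 28.8%. In the other endothelial cells the shares were 23.6% and 21.1%, 6.34% and 10.1%, and 7.39% and 6.48%. Dll1 did not follow this order, with 14.5% and 17.0% against 15.8% and 23.1%. The arterial cells were deeper, at medians of 12604 and 14214 against 8969 and 12129 UMIs. At 10000 UMIs both sides were found in 54.4% ± 3.33 of the arterial and 33.9% ± 2.48 (SD, n = 2) of the other cells. Of 37 pathway genes 14 were higher and 5 lower in the endothelial gate. Mfng, which like Lfng adds sugars to Notch receptors, stood at 69.7 and 73.5 CPM (7.10 ± 0.19), and Dlk1, a ligand-like protein, at 193.3 and 59.6 CPM (5.09 ± 0.31). Dlk1 was called higher in stroma too, with log2 fold changes of 4.28 to 5.52 over other settings.

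Stroma held receptor with little ligand, and Jag1 was the main ligand of the mural gates. In stroma both sides were found in 5.74% (4.26% to 7.54%) of 836 cells and 7.51% (5.82% to 9.51%) of 839 cells, and receptor without ligand in 65.2% and 71.5%. In pericyte or mesangial cells both were found in 28.2% (23.1% to 33.7%) and 32.9% (27.0% to 39.3%), and Notch3 with Jag1 was the commonest pair at 21.0% and 23.2%. In the smooth muscle or renin gate the same pair led with 19.3% and 58.3%, and both sides were found in 27.3% of 88 cells and in 36 of 60 cells. Jag1 there stood at 121.2 and 239.9 CPM in cells of the pericyte cluster, at 18.9 CPM in the 49 cells of the smooth muscle cluster in replicate 1, and at 0 in the 3 of replicate 2.

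In stroma 1 member, Notch3, was called higher and 3, Notch1, Jag1 and Dll4, lower, beside 30.1% and 15.8% of all genes. In pericyte or mesangial cells 4 members, Notch1, Notch3, Notch4 and Dll4, were higher and 0 lower by edgeR, beside 24.6% and 15.1%. No member there was lower at an unadjusted p under 0.05 either, but Dll1 had a standard error of 1.96e+06 in that fit, so it was not usefully tested. DESeq2 called 1, Dll1, lower, as did edgeR without the gates at 0 counts (-2.61 ± 0.56). In the smooth muscle or renin gate 3, Notch2, Notch3 and Jag1, were higher and Dll1, 1 member, lower, beside 16.2% and 10.3%. The target genes Heyl (142.8 and 130.5 CPM, 4.16 ± 0.16) and Hey2 (17.4 and 20.6 CPM, 3.76 ± 0.36) were higher in pericyte or mesangial cells. In the smooth muscle or renin gate Hey2 reached 29.1 and 97.5 CPM (5.65 ± 0.37). Nrarp, a target that feeds back on the pathway, reached 27.2 and 112.8 CPM there (3.97 ± 0.32). The makeup of that gate differed between libraries. Over other settings and each library alone, these log2 fold changes ranged from 4.41 to 6.28 and from 2.56 to 4.21. The SEs do not describe that spread. Nrarp had no count in the immune gate, which makes the mean of the other gates unstable. It was not refitted without the immune gate. Of 37 pathway genes, 8 were higher and 9 lower in stroma, 12 and 4 in pericyte or mesangial cells, and 9 and 3 in the smooth muscle or renin gate. Rbpj itself, the gene of the conditional allele, stood at 69.8 and 63.0 CPM in stroma (-0.18 ± 0.14, adjusted p = 0.324). The labels do not place the deleted part, so these 3′ counts do not check recombination.

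Few immune cells held a ligand. Receptor without ligand was found in 68.6% and 73.8%, and both in 1.43% (0.174% to 5.07%) and 5.0% (1.38% to 12.3%) of 140 and 80 cells. The 2 members Notch1 and Notch2 were called higher and 2, Notch3 and Jag1, lower, beside 24% and 20% of all genes. Mfng was higher at 15.6 and 13.2 CPM (4.69 ± 0.47), and Nrarp had 0 counts in both libraries, at least 14.7-fold below the other gates with the same floor. In the erythroid gate edgeR called 0 members higher and 0 lower, beside 5.7% and 2.11% of all genes. At an unadjusted p under 0.05, edgeR had 1 higher and 0 lower, and DESeq2 called 1, Notch4, higher. Of 37 pathway genes, 11 were higher and 7 lower in immune cells, and 3 and 3 in erythroid cells. Over the 14 gates the median log2 fold change of the list lay between -0.32 and 0.23, beside -0.22 to 0.17 for all genes tested.

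Whether a receptor and a ligand met in the same cell more often than their separate shares give was described by a ratio. Cells with both were divided by the number that the 2 shares give within 5 bins of depth of the same gate and library, so that a ratio of 1 means no excess. Of 240 combinations of pair and gate, 36 had at least 20 such cells in each library. Their ratios, as means of both libraries, ran from 0.883 to 1.46 with a median of 1.07. The ratio was above 1 in both libraries for 26, below 1 in both for 2 and mixed for 8. The cutoff of 20 acts on the cells with both, which are the numerator of the ratio. Pairs with few cells given by the shares pass it only at a high ratio, so this tally and the highest ratios are tilted above 1. For any receptor with any ligand over all gates it was 1.03 ± 0.00967 (SD, n = 2). Where every cell of a bin held a receptor, as in the deepest early nephron bin of each library, the ratio is 1 by construction. Such bins cannot show an excess, so this value does not tell whether there is none.

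The 6 highest ratios came from 5 gates. Notch3 with Jag1 gave 1.43 and 1.49 in stroma, in 20 and 30 cells, 1.46 and 1.34 in proximal tubule, in 29 and 22 cells, and 1.21 and 1.25 in pericyte or mesangial cells, in 61 and 55 cells. Notch1 with Dll1 gave 1.43 and 1.30 in proximal tubule and 1.26 and 1.25 in early nephron, and Notch4 with Jag1 gave 1.14 and 1.26 in endothelial cells. None of these 6 fell below 1 in any of 17 other settings. The lowest was Notch2 with Dll4 in endothelial cells, at 0.892 and 0.873. The ratio pools cells of a gate that may differ in state. In the pericyte or mesangial gate, cells of the pericyte cluster carried more of both members (Jag1 61.3 and 73.9 CPM against 18.2 and 13.0 CPM in cells of the stroma clusters), and with the gate taken from the cluster the ratio was 1.07. Between ligands, Jag1 with Jag2 in endothelial cells gave 1.89 and 1.88. Of these cells, 89 of 92 and 68 of 71 were arterial by the markers above, and within the arterial cells the ratio was 1.61 and 1.57.

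**Figure D5:**
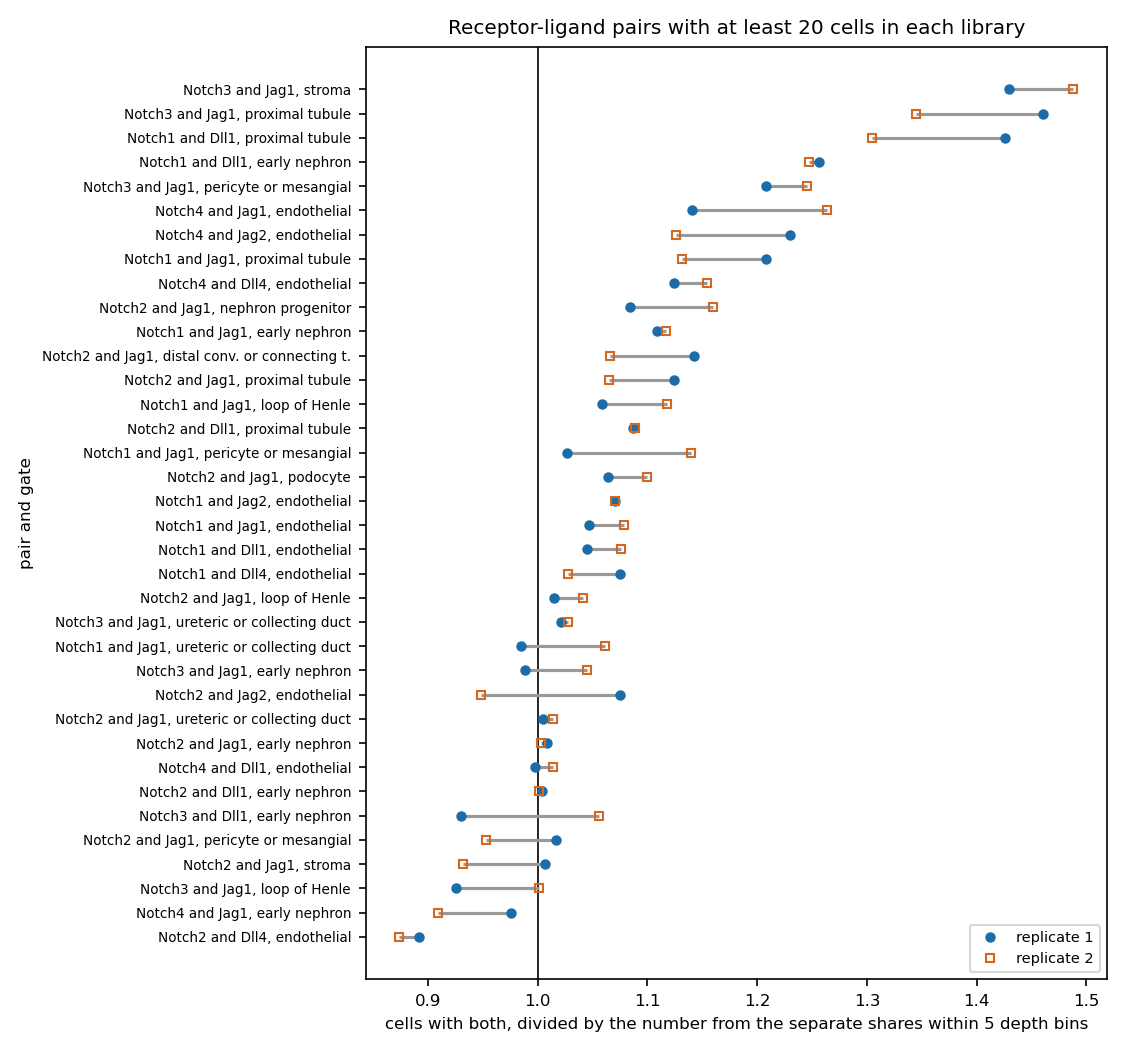
Ratio of cells with both members of a pair to the number given by the separate shares within 5 depth bins (horizontal), for the 36 combinations of pair and gate with at least 20 such cells in each library (vertical, sorted by the mean). The filled circle is replicate 1, the open square replicate 2 and the vertical line a ratio of 1. Mean ratios run from 0.883 to 1.46.

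The genes whose levels over the 28 sums of gate and library were most like each member were found among 13947 genes by the Pearson correlation of log2(CPM + 1). Sums of 1 library share its preparation and depth, so these are descriptions with no test. Jag2 was closest to Cyp26b1 (r = 0.944), Dipk2b (0.943) and Nr5a2 (0.936), Dll4 to Mmp28 (0.894) and Notch4 to Plpp1 (0.889). Notch3 was closest to Sdc1 (0.862), Jag1 to Galnt18 (0.861), Notch1 to Rasal2 (0.842) and Notch2 to Caprin2 (0.814). Dll1 had the lowest value for its nearest gene, Fam171a1 (0.732).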

How the data were processed

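Kidney cells of 2 libraries were profiled on the Chromium system from transcript 3′ ends, per the labels. The deposited values are raw UMI counts per gene and barcode for all barcodes. Per the file headers they come from Cell Ranger 4, whereas the submitters' processing notes name Cell Ranger 6.0.1 and mm10. Cells were gated with 137 markers of 17 types, after Scrublet scores (scanpy 1.11.5) had removed 0.8% of cells per 1000 called cells. A cell took the best-scoring type if the score was at least 0.2 and no other lineage exceeded 0.6 of it. Counts summed per gate and library were tested with edgeR 4.0.16 (TMM, filterByExpr, library as a term, 28 sums, 13 residual degrees of freedom), with Benjamini-Hochberg adjustment over 17485 genes. The 126 markers in the fit were left out. Scripts were tested on simulated data. The members and lists were chosen with earlier results of these data known. Named were all members, in each gate the commonest pair and the 2 pathway genes of largest change, the 6 highest ratios and the genes of most like pattern, of which the text gives a part. Alternatives covered doublets, depth, gating, scaling, filter and test.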

Additional observations from a re-analysis of the deposited data

How the results depend on the processing

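The 60 member calls became 54 to 70 over 14 other settings and the 223 calls of the pathway list 186 to 255, all within 1.5 times. With gates taken from clusters, 51 of the 56 member calls that could be fitted were kept, and 166 of 211 of the pathway list. With a doubled doublet rate, up to 60000 UMIs, or with a stricter limit on other lineages, 52 of 60 member calls were kept. Among member calls 1 changed sign, Notch1 in stroma with gates from clusters, at 0.22 with an adjusted p of 0.314. Among pathway calls 5 changed sign with gates from clusters, 1 up to 60000 UMIs and 1 with the stricter limit on other lineages. The causes were not tested. The share of gated cells with both sides, 36.0%, was 36.5% without doublet removal, 35.1% with the doublet rate doubled, 37.7% from 6000 UMIs, 31.2% up to 60000 UMIs, 37.4% at a gate score of 0.3, 35.6% with gates from clusters, 36.4% without the erythroid gate and 36.3% without the erythroid and smooth muscle or renin gates. It was 17.9% for at least 2 UMIs of a gene, 6.33% when thinned to 3000 UMIs and 22.6% at 10000 UMIs, so depth limits every share. Leaving out a replicate gave 35.8% and 36.2%. The ratio, 1.03, was 1.09 for at least 2 UMIs, 1.18 and 1.06 when thinned to 3000 and 10000 UMIs and 1.07 without depth bins, and 1.02 to 1.04 without a replicate. The library term pairs the gates of each library. Without this replicate block, 59 member calls and 186 pathway calls were made. The settings without the erythroid gate, without it and the smooth muscle or renin gate, and without Postn as a marker were chosen after seeing the data.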
